A study of Mus musculus with 2 samples.

Results

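The complement genes C3, C4b, Cfb, C8a, C9, Mbl2, C1qa, C1qb and C1qc were measured across mouse liver sections by spatial transcriptomics. They were chosen by symbol, and all 9 were found among the 32285 genes of each filtered matrix. The data came from 2 liver sections, 1 of a mouse on normal chow diet (NCD) and 1 of a mouse on high-fat diet (HFD), from male C57BL/6J mice that were 5 weeks old on arrival. The HFD mouse received a 60% high-fat diet (D12492) for 14 weeks and then daily oral distilled water for 8 weeks, and the NCD mouse also received water. Fresh frozen liver sections of 10 µm were placed on Visium slides, on which each spot captures the RNA of several neighbouring cells. GEO's labels name immune or hematopoietic stem cells as the source, whereas the hepatocyte marker panel made up 104745 CPM (UMIs of a gene or panel per 1000000 UMIs of the section) in the NCD section and 122385 CPM in the HFD section. The spots are therefore described here as whole liver tissue.

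Complement is a cascade of plasma proteins that marks microbes, immune complexes and dying cells. Most of its circulating components are made by hepatocytes, among them C3, C4, factor B and the terminal proteins C8 and C9, whereas C1q, the recognition molecule of the classical pathway, is made largely by macrophages, in liver by Kupffer cells. The classical and lectin pathways start from C1q and mannose-binding lectin, cleave C4 and C2, and meet the alternative pathway at C3. Cleavage of C5 then starts assembly of the membrane attack complex from C6, C7, C8 and C9.

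The sequences before the transcription starts are shown to set 1 macrophage-type gene beside 3 hepatocyte-type genes. RefSeq promoter entries (GRCm38.p6) were found for 6 of the 9 members, with none for C4b, Cfb and C1qa. Each line gives the 250 bases before the start, 5′ to 3′ on the gene's strand. Capitals mark matches to GAGGAA (ETS core), TTGCNNAA (C/EBP), TTCNNNGAA (STAT) and GTTAAT (HNF1), and TATAAA and CAAAGT (HNF4) were searched too, on both strands. The windows were chr4:136886201-136886450 (minus strand) for C1qb, chr17:57228137-57228386 (minus strand) for C3, chr4:104876399-104876648 (minus strand) for C8a and chr19:30232678-30232927 (plus strand) for Mbl2.
C1qb: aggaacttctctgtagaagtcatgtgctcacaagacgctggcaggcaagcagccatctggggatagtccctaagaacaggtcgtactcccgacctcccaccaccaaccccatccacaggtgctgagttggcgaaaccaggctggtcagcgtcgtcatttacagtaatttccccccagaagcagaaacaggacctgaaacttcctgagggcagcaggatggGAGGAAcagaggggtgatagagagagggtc
C3: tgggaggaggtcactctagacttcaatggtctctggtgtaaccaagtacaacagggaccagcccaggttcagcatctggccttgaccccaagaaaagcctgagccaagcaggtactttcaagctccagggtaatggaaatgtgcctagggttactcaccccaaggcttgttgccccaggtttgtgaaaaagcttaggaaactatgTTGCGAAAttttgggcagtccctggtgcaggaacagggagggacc
C8a: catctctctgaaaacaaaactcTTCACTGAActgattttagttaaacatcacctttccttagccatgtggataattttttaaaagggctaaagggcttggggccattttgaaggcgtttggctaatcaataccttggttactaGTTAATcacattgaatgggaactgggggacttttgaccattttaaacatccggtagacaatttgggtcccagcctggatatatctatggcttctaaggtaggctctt
Mbl2: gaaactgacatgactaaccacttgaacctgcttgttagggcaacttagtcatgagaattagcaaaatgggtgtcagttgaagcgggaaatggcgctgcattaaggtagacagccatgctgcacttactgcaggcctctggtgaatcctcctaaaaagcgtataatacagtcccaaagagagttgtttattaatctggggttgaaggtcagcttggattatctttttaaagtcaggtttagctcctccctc
The C1qb window held GAGGAA from -30 to -25 relative to the start, a motif found in 23.3% of 32851 mouse promoter windows of this length. The C3 window held TTGCNNAA from -45 to -38 (9.56% of promoters). The C8a window held TTCNNNGAA from -228 to -220 (7.02%) and GTTAAT from -107 to -102 (6.43%). The Mbl2 window matched none of the 6. These matches describe the letters only.

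In the genome (GRCm38) the C1q genes lie together on the minus strand of chromosome 4, in the order C1qb (chr4:136880129-136886187), C1qc (chr4:136889804-136893065) and C1qa (chr4:136895917-136898803), with 3616 and 2851 bases between neighbours. C4b (chr17:34728380-34743882) and Cfb (chr17:34856374-34862518) lie in the same region of chromosome 17. C4a, a near-identical copy of C4b, lies 65209 bases from it, so the division of reads between C4a and C4b is uncertain. Cfb lies 85 bases from C2 on the same strand.

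The HFD section had 72118803 UMIs (unique molecular identifiers, each standing for 1 captured transcript) over 3594 spots, and the NCD section 29037988 over 3692 spots. The median was 18549 UMIs per spot in HFD and 4187.5 in NCD, and 840 NCD spots (22.8%) had fewer than 1000 UMIs against 4 HFD spots. Spots outside the tissue held 19.1% of the UMIs of the NCD slide area and 2.93% of those of HFD. The median spot off tissue had 3383 UMIs in NCD and 1175.5 in HFD. Where the off-tissue RNA profile was subtracted, the mean spot off tissue was taken from the mean spot over tissue. That step removed a much larger part of the RNA in NCD than in HFD. With 1 section per diet no test between diets was possible, and diet, mouse, section and slide cannot be told apart. Intervals are 95% and cover counting error only.

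The question of the first comparison was how complement transcripts differed between the HFD and NCD sections. Transcripts of C9, C4b and the C1q genes were higher in the HFD section, those of C3 were lower, and those of Mbl2 were nearly level. Of the 9 members, C9, C4b, C1qa and C1qb (4) were at least 1.5-fold higher and 0 were at least 1.5-fold lower. Of all 10665 genes with at least 200 UMIs, 23.9% were higher and 4.56% lower by that fold, 28.4% in either direction. The median log2 ratio of those genes was 0.23, so the median gene was itself higher in the HFD section on this scale. Set against that median the higher and lower genes numbered 1470 and 1010 instead of 2548 and 486, and of the members C3 and C9 (2) were past the fold. The median log2 ratio was 0.55 over the 9 members, 0.17 over the 6 hepatocyte members and 0.77 over the C1q genes.

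C3, the protein on which all activation routes converge, had 3538 CPM in NCD and 2603 CPM in HFD, a log2 ratio of -0.44 (-0.45 to -0.43). It rested on 102750 and 187729 UMIs. Relative to the median gene the log2 ratio was -0.68. With the off-tissue RNA profile subtracted it was -0.05, so the size of the C3 difference depended on that step.

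C4b, which provides the C4 that the classical and lectin proteases cleave, had 569 CPM in NCD and 857 CPM in HFD, a log2 ratio of 0.59 (0.57 to 0.62). Its fold of 1.51 lay just past the limit. Cfb, the protease subunit of the alternative C3 convertase, had 575 and 697 CPM (log2 0.28, 0.25 to 0.30). Relative to the median gene, C4b stood at 0.36 and Cfb at 0.04. With the off-tissue RNA profile subtracted C4b had 1.07 and Cfb 0.74, so Cfb was then past the fold too.

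C8a encodes the alpha chain of C8, and its level was 142 CPM in NCD and 125 CPM in HFD (log2 -0.19, -0.24 to -0.13). C9, whose polymer forms the pore of the membrane attack complex, had 137 and 245 CPM (log2 0.84, 0.79 to 0.89), a fold of 1.79. These terminal genes therefore differed in opposite directions in CPM. After the RNA profile of off-tissue spots was subtracted the C8a ratio changed sign to 0.67, while that of C9 was 1.26. Mbl2, a mannose-binding lectin, had 348 and 361 CPM (log2 0.05, 0.02 to 0.09), and -0.18 relative to the median gene.

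The C1q chains were all higher in HFD. C1qa had 63.9 CPM in NCD and 112 CPM in HFD (log2 0.81, 0.74 to 0.88), C1qb 81.6 and 139 CPM (0.77, 0.70 to 0.83) and C1qc 81.6 and 120 CPM (0.55, 0.49 to 0.62). C1qc, at 1.47-fold, lay just inside the limit. With the off-tissue RNA profile subtracted the log2 ratio was 0.84 for C1qa, 0.74 for C1qb and 0.13 for C1qc. As a mean of CPM per spot the chains had 0.43, 0.27 and 0.23. The 3 chains are subunits of 1 protein, and their summed level was 227 CPM in NCD and 371 CPM in HFD (log2 0.71, 0.67 to 0.75). The sum of the 6 hepatocyte members had 5310 and 4888 CPM (log2 -0.12, -0.13 to -0.11), and 0.37 when C3 was left out. The C1q ratio was 0.47 relative to the median gene and 0.30 as a mean of CPM per spot. NCD spots of low depth had more C1q, with 415 CPM in those under 1000 UMIs and 194 CPM in those of at least 20000. In spots of 8000 to 20000 UMIs, a range found in both sections, the ratio was 0.76.

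A panel of 10 macrophage genes that holds no complement gene had 320 CPM in NCD and 543 CPM in HFD (log2 0.76, 0.73 to 0.80). In the NCD section there were 71.0 C1q UMIs (68.8 to 73.3) for every 100 macrophage panel UMIs, and in the HFD section 68.2 (67.1 to 69.3). The genes of this panel differed in opposite directions. Its 5 Kupffer cell genes summed to 170 CPM in NCD and 180 CPM in HFD, with log2 ratios of -3.20 for Marco, -3.17 for Timd4, -0.14 for Clec4f, 0.00 for Folr2 and 0.51 for Cd5l. Its other 5 genes were all higher in HFD, with Csf1r at 0.90, Adgre1 at 1.12, Mpeg1 at 1.21, Lyz2 at 1.43 and Cd68 at 1.46. The C1q ratio of 0.71 thus lay between those of the Kupffer cell genes and those of the other macrophage genes. A separate lipid-associated macrophage panel was 29.6 CPM in NCD and 102 CPM in HFD. Panels of other cells differed as well, with log2 ratios of 0.70 for stellate cells and fibroblasts, 1.41 for smooth muscle, 1.08 for bile duct, 0.45 for sinusoidal endothelium, -1.64 for B and plasma cells and -2.42 for red blood cells, and their part in the C1q difference was not tested. More macrophages and more RNA per macrophage cannot be told apart in these spots. The acute-phase panel was also higher in HFD, at 7102 CPM against 2981 CPM (log2 1.25), and its part in the hepatocyte members was not tested.

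RNA outside the tissue differed between the slides. In NCD the hepatocyte members had as high or higher CPM off tissue as over it, with log2 ratios of tissue over off-tissue spots from -0.27 (C8a) to -0.06 (Mbl2). In HFD the same ratios lay between 0.28 (Mbl2) and 0.58 (C8a). C1qc was the member with the highest ratio in NCD (0.30), while C1qa and C1qb were at 0.02 and 0.04. In HFD the C1q ratios were 0.77 for C1qa, 0.60 for C1qb and 0.43 for C1qc.

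**Figure D1:**
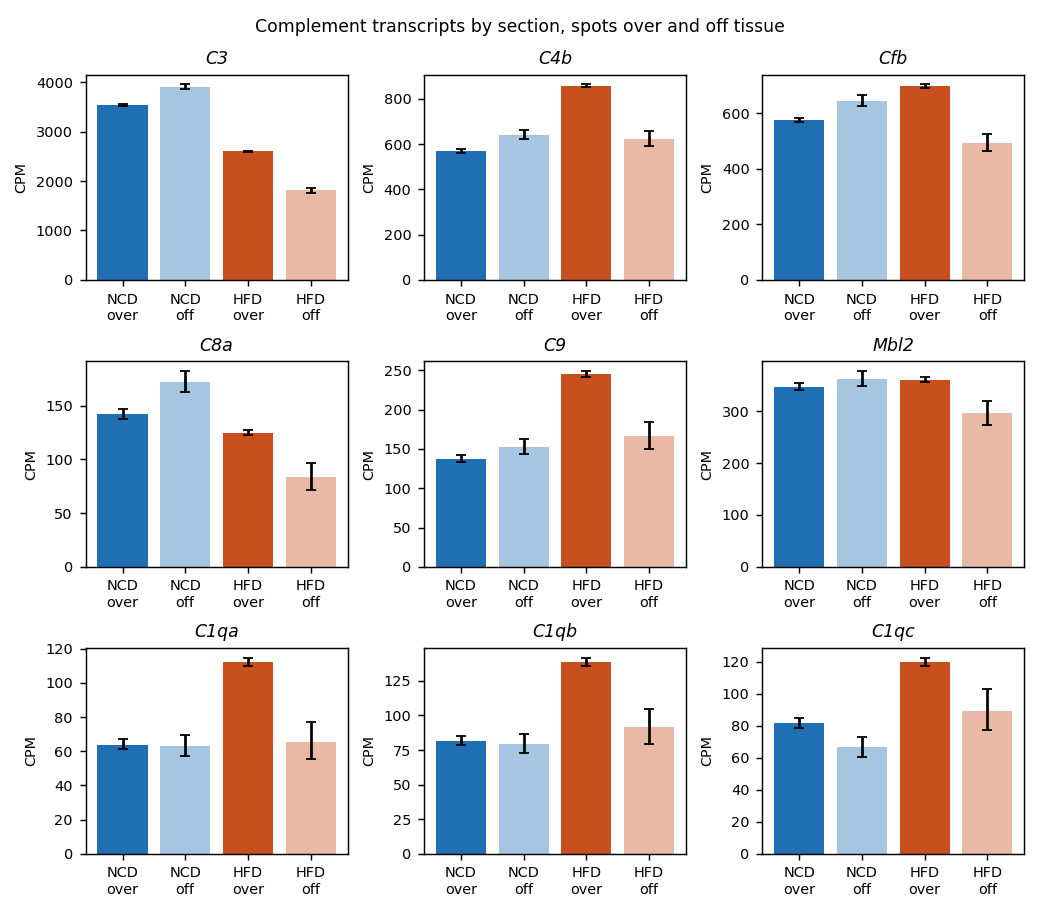
Level in CPM (y axis) of each complement gene in NCD (blue) and HFD (orange) spots over tissue (dark) and off tissue (pale), with bars for 95% counting intervals. C9, C4b and the C1q genes stood higher over tissue in HFD, C3 stood lower, and the off-tissue bars reached the tissue bars in NCD for the hepatocyte genes.

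At 3000 UMIs drawn from each spot, C3 was seen in 100% of 2107 NCD spots and 99.9% of 3538 HFD spots. C9 was seen in 30.9% (29.0% to 33.0%) of NCD spots and 49.9% (48.3% to 51.6%) of HFD spots, and C8a in 34.8% and 29.9%. At least 1 C1q UMI was seen in 44.9% (42.7% to 47.0%) of NCD spots and 63.1% (61.5% to 64.7%) of HFD spots. Without drawing down, these C1q shares were 56.2% and 95.7%, which shows how far the share depends on depth. The spot-to-spot variance over the mean was 1.46 in NCD and 1.32 in HFD for the C1q sum, against 1.04 and 1.09 for the hepatocyte members without C3. It was 1.12 in NCD and 1.28 in HFD for C3, and from 1.07 to 1.21 over both sections for the single C1q chains. With C3 the hepatocyte sum had 1.14 and 1.298. For an equal relative spread this measure is larger where the mean is larger. At 3000 UMIs the HFD mean was 14.5 UMIs for the hepatocyte sum and 1.13 for the C1q sum. Their similar values in HFD therefore do not show that they were similarly uneven over the spots.

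The next comparison asked where in the liver lobule each gene was found. Blood enters the lobule at the portal vessels and leaves at the central vein, and hepatocytes along this path differ in their gene expression. Spots with at least 1000 UMIs (2852 in NCD, 3590 in HFD) were ordered within each section by an index of 6 periportal and 6 pericentral genes and divided into 3 equal groups, called pericentral, midlobular and periportal. Marker genes that the index did not use followed this order in both sections, with log2 ratios of periportal over pericentral spots from 0.41 to 2.85 in NCD and 0.56 to 2.21 in HFD for 6 periportal genes, and all below 0 for 5 pericentral genes. Of the members, C8a and C9 (2) were past 1.5-fold towards the periportal spots in each section. Of all genes tested, 2.09% in NCD and 2.92% in HFD were past it in that direction, and 5.96% and 4.06% in the pericentral direction (8.05% and 6.97% in either). Of the complement list, 2 genes in NCD were past it towards periportal and 2 towards pericentral spots, of 35 tested, and 4 and 3 in HFD, of 42 tested.

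C9 had 90.2, 157 and 177 CPM in pericentral, midlobular and periportal NCD spots, and 173, 258 and 287 CPM in HFD. The log2 ratio of periportal over pericentral spots was 0.97 (0.85 to 1.09) in NCD and 0.73 (0.68 to 0.79) in HFD. Divided more finely, into 10 groups, C9 was lowest in the most pericentral group, at 66.7 CPM in NCD and 120 CPM in HFD. It was no higher in the last group than in the eighth, with 163 against 181 CPM in NCD and 276 against 299 CPM in HFD.

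C8a had 116, 139 and 180 CPM along the same axis in NCD (log2 0.64, 0.52 to 0.75) and 84.3, 119 and 157 CPM in HFD (log2 0.90, 0.82 to 0.98). Unlike C9, it was highest in the last of the 10 groups, at 214 CPM in NCD and 182 CPM in HFD. C8a and C9 act in the same complex, and both were periportal in both sections. Drawing each HFD spot down to 1000 UMIs took C9 inside the limit (log2 0.48), with C8a at 0.60.

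C3 had 3432, 3499 and 3676 CPM in NCD (log2 0.10, 0.08 to 0.12) and 2106, 2450 and 3054 CPM in HFD (log2 0.54, 0.52 to 0.55). The C3 difference between the sections accordingly shrank along the lobule. The log2 ratio of HFD over NCD was -0.70 in pericentral, -0.51 in midlobular and -0.27 in periportal spots. Whether the slope differed between diets could not be tested with 1 section each, and the part of the off-tissue RNA in NCD was not tested.

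C4b and Cfb had smaller slopes. C4b had 556, 578 and 573 CPM in NCD (log2 0.04, -0.01 to 0.10) and 783, 860 and 907 CPM in HFD (log2 0.21). Cfb had 544, 568 and 631 CPM in NCD (log2 0.21) and 620.5, 687 and 757 CPM in HFD (log2 0.29). Mbl2 was level between pericentral and periportal spots in NCD, at 337, 365 and 337 CPM. In HFD it was lower in periportal spots, at 381, 378 and 335 CPM (log2 -0.19, -0.23 to -0.15).

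Over all spots with at least 1000 UMIs, the C1q genes were highest in the middle of the lobule. Their sum was 212, 245 and 214 CPM in NCD, where midlobular over other spots gave a log2 ratio of 0.21 (0.13 to 0.28), and 382, 433 and 321 CPM in HFD (0.32, 0.29 to 0.36). The macrophage panel ran alongside, at 313, 345 and 282 CPM in NCD and 557, 626 and 479 CPM in HFD. Per 100 macrophage panel UMIs, C1q stood at 67.6, 71.1 and 75.7 UMIs in NCD and at 68.7, 69.2 and 66.9 in HFD.

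All C1q chains took part in the drop towards the portal end in HFD. Their log2 ratios of periportal over pericentral spots were -0.24 for C1qa, -0.22 for C1qb and -0.30 for C1qc, and the summed level was 451 CPM in the sixth of 10 groups and 244 CPM in the last. In the HFD section the periportal spots were also the deepest, with a median of 24706.5 UMIs against 16807 in pericentral and 14507 in midlobular spots. Among HFD spots of 3000 to 20000 UMIs these ratios were 0.13, 0.12 and 0.02, so the portal drop was not found at that depth. The midlobular peak was not computed at matched depth.

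**Figure D2:**
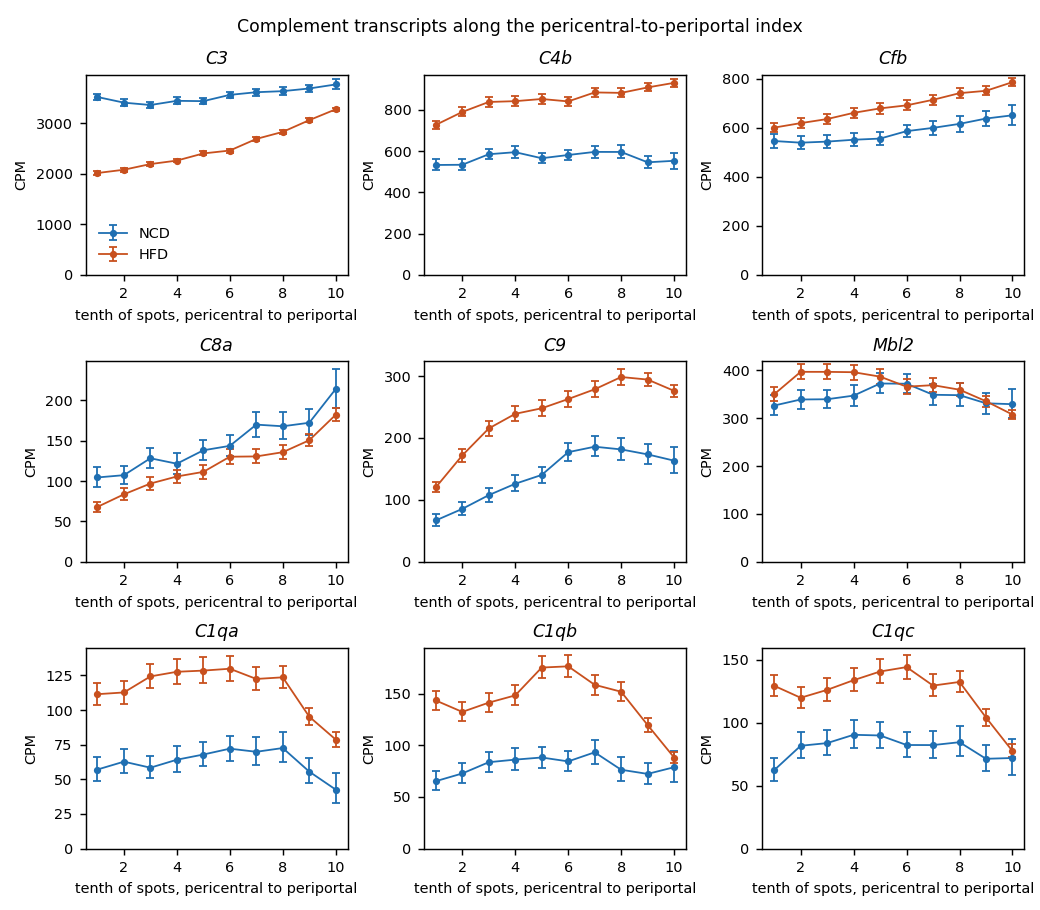
Level in CPM (y axis) of each gene over 10 equal groups of spots ordered from pericentral to periportal (x axis) in NCD (blue) and HFD (orange), with 95% counting intervals. C8a and C9 were higher towards the periportal side in both sections, C3 mainly in HFD, and the C1q genes were highest in the middle. Depth was not held equal over the groups.

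The last comparison set spots with macrophage RNA against spots without it, to show which members went with macrophage RNA. Spots with at least 3000 UMIs were drawn down to 3000, and those with at least 1 macrophage panel UMI were compared with those with 0. Such spots numbered 1219 of 2107 in NCD (57.9%) and 2645 of 3538 in HFD (74.8%), and their median depths (9704 against 10187.5 UMIs in NCD, 18681 against 18906 in HFD) were close. The C1q sum had 258 CPM with and 172 CPM without panel UMIs in NCD (log2 0.59, 0.51 to 0.67), and 407 and 265 CPM in HFD (log2 0.62, 0.57 to 0.66). The 6 hepatocyte members lay between -0.13 and 0.05. Hepatocyte panel UMIs were seen in 100% of these spots, so a ratio near 0 does not show that a member followed hepatocytes.

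C1qa had a log2 ratio of 0.62 in NCD and 0.60 in HFD, C1qb 0.59 and 0.64, and C1qc 0.56 and 0.61. Of the members, 2 in NCD (C1qa and C1qb) and 3 in HFD (all C1q chains) were at least 1.5-fold higher with macrophage RNA. Of all genes tested, 0.628% in NCD and 1.49% in HFD were. C1qc in NCD missed the limit narrowly, and no member was past it in the other direction, where 0.0585% and 0.0498% of genes were (0.687% and 1.54% in either).

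C1q was graded with the amount of macrophage RNA. Spots with 0, 1, 2 and 3 or more panel UMIs had 172, 204, 285 and 449 CPM of summed C1q in NCD and 265, 323, 387 and 535 CPM in HFD. Over these 4 classes the share of C1q UMIs that came from C1qa lay between 27.3% and 29.7% in NCD and between 29.3% and 31.3% in HFD. That from C1qb lay between 31.7% and 38.2% in NCD and between 36.8% and 38.3% in HFD. All chains were thus higher together where macrophage RNA was seen. The difference between sections in summed C1q was smaller in the spots with the most macrophage RNA. Its log2 ratio of HFD over NCD was 0.63 (0.55 to 0.70) at 0 panel UMIs and 0.25 (0.15 to 0.35) at 3 or more. The chains were not alike at 3 or more, with 0.24 for C1qa, 0.52 for C1qb and -0.002 (-0.16 to 0.16) for C1qc. A spot with 0 panel UMIs among 3000 can still hold macrophage RNA.

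**Figure D3:**
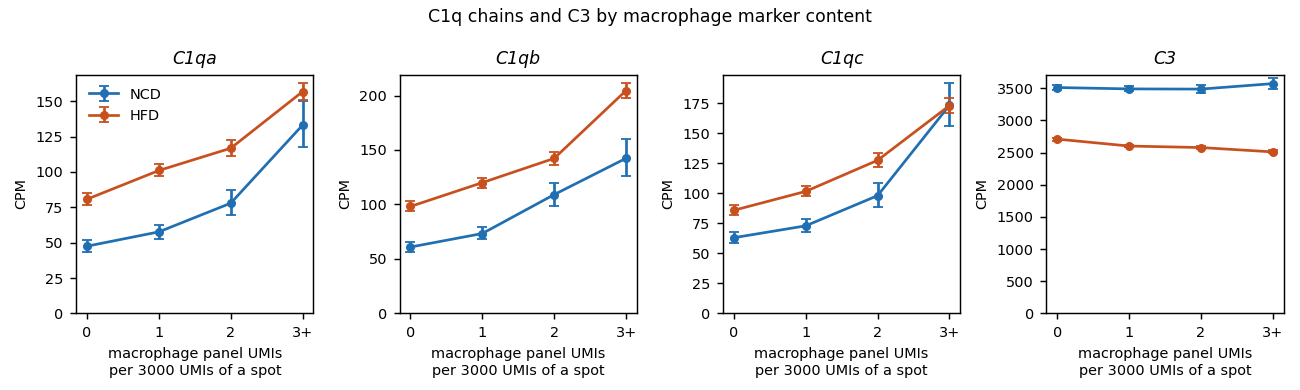
Level in CPM (y axis) of the C1q chains and C3 in spots grouped by the number of macrophage panel UMIs among 3000 UMIs (x axis), in NCD (blue) and HFD (orange), with 95% counting intervals. Each C1q chain was higher where more macrophage UMIs were seen, and C3 was not.

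The macrophage markers were also split by kind. With neither Kupffer cell nor lipid-associated panel UMIs, summed C1q was 187 CPM in NCD and 307 CPM in HFD. With Kupffer cell UMIs alone it was 267 and 433 CPM, with lipid-associated UMIs alone 191 and 358 CPM, and with both 451 and 541 CPM. In NCD the intervals with lipid-associated UMIs alone (169 to 215 CPM) and with neither (180 to 194 CPM) overlapped, whereas in HFD they did not (347 to 369 and 301 to 313 CPM). A single gene of the lipid-associated panel, Fabp5, gave 658 of its 859 UMIs in NCD and 2876 of 7338 in HFD. This class was therefore made up differently in the sections. With Kupffer cell UMIs alone C1q was higher than with neither in both sections.

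Among the other cell types, the T cell panel went with higher C1q in NCD (log2 0.82, in 82 spots) and in HFD (0.24), and the stellate and fibroblast panel with 0.27 and 0.15. The sinusoidal endothelial panel, which marks the cells lining the same vessels as Kupffer cells, had ratios of 0.04 and 0.07. In HFD the bile duct panel went with lower C1q (-0.25) and Mbl2 (-0.31) and with higher C8a (0.40) and C3 (0.24). Bile ducts run beside the portal vessels, and the position of the spots was not held fixed here.

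**Figure D4:**
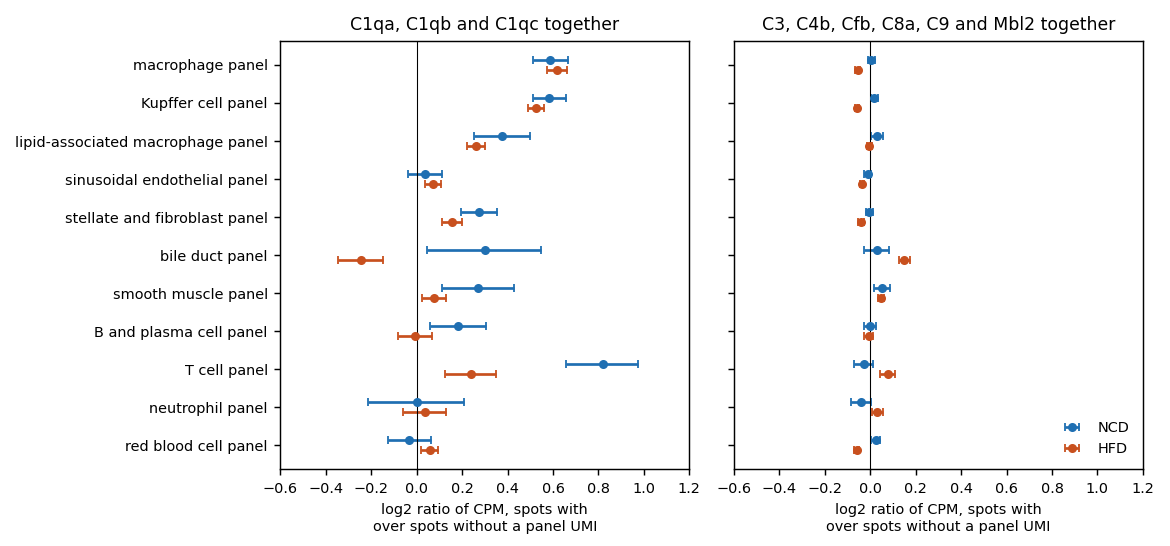
Log2 ratio of CPM in spots with over spots without UMIs of each marker panel (x axis) for the summed C1q genes and the summed hepatocyte members, in NCD (blue) and HFD (orange), with 95% counting intervals. C1q lay furthest to the right for macrophage and Kupffer cell markers in HFD and for T cell markers in NCD, while the hepatocyte members stayed near 0 throughout.

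Spots were also ranked by the share of hepatocyte marker UMIs and split into 3 groups. Summed C1q was 261 CPM in the lowest and 200 CPM in the highest group in NCD (log2 -0.39), and 477 and 268 CPM in HFD (log2 -0.83). C8a went the other way, with log2 ratios of 0.58 in NCD and 0.65 in HFD, as did C9 (1.05 and 0.48) and C3 (0.07 and 0.43). Mbl2 had ratios of 0.05 and -0.11. The hepatocyte panel was itself higher in periportal than in pericentral spots (log2 0.44 in NCD and 0.25 in HFD), and in NCD its lowest group had a median of 4561 UMIs against 8129 in the highest, so this ranking was not independent of position and depth. Ranked by acute-phase markers, C8a had 0.27 and 0.71, C9 0.38 and 0.50, and C3 0.11 and 0.43, whereas C1q had 0.32 in NCD and -0.03 in HFD. The macrophage panel had 0.28 and 0.05 in this ranking. Its highest group was shallower than its lowest in NCD (median 4765.5 against 6226 UMIs) and deeper in HFD (20531.5 against 16937). The acute-phase panel was itself higher in periportal than in pericentral spots (log2 0.24 in NCD and 0.47 in HFD). A single gene, Hp, gave 56727 of its 86562 UMIs in NCD and 369976 of 512187 in HFD. The parts of position and depth in this ranking were not tested.

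The genes whose levels most resembled each member were sought over 20 clusters of spots, 9 from NCD and 11 from HFD, after centring within section. The clusters of a section share 1 library but differ in depth. Their median depth ran from 294 to 17188 UMIs per spot in NCD and from 8495 to 32637 in HFD. The shallowest NCD cluster had the highest levels of C3, C8a and each C1q chain in that section. Depth was not held fixed, and the correlations describe these clusters only. C1qa and C1qb were most like Fcgr3 (r = 0.93 for both), an Fc receptor of myeloid cells, and Aif1 (0.92 and 0.93), a macrophage protein. C1qc was most like Csf1r (0.93), the receptor for macrophage colony-stimulating factor, which also belongs to the macrophage panel. The C1q chains correlated with each other at 0.95 to 0.98.

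The hepatocyte members had other neighbours. Among the genes most like C3 were Ahsg (0.91) and Itih2 (0.91), plasma proteins made by liver, and Cfb was most like Gm4788 (0.92), Afm (0.91) and Serpind1 (0.90). C8a was most like Gas2 (0.96), Cyp39a1 (0.94) and Mug2 (0.93), and C9 like AI182371 (0.87), Wfdc21 (0.84) and Gm32461 (0.83). Mbl2 was most like Apol7a (0.91), Scp2 (0.89) and Cpt1a (0.87), the last the carnitine transferase of fatty acid oxidation. C4b had weaker neighbours, with Gm2a at 0.76 and Actg1 at 0.75. In each section the cluster with the most C4b was the one with the least Mbl2. In HFD that cluster also had the most C1qa and C1qb, though not C1qc, and in NCD the C1q chains were highest in another cluster. C3 and C8a correlated at 0.86, and Mbl2 and C4b at -0.57.

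The rest of the cascade was read from a list of 50 complement genes that holds the members. Of these, 43 had at least 200 UMIs, 13 were at least 1.5-fold higher and 5 at least 1.5-fold lower in HFD, and 25 lay between. Over all genes the shares were 23.9% higher and 4.56% lower. The other 7 had fewer UMIs. The median log2 ratio of the 43 genes was 0.25, next to 0.23 over all genes. The direction of the 18 genes past the fold held under the 8 other ways of scaling or selecting spots for 17 of them, C5ar2 being the exception. Of these 18 genes, 13 were still past the fold relative to the median gene. On that scale 8 of the 43 genes were past it towards HFD and 9 towards NCD. Of all 10665 genes tested, 1470 and 1010 were.

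In the classical and lectin steps, C1s1, the protease that cleaves C4 and C2, had a log2 ratio of 1.05, whereas C1ra, the protease that activates it, had -0.64. C4a had 10.2 CPM in NCD and 39.8 CPM in HFD (log2 1.97), subject to the uncertainty with C4b. C2 had 0.14. The proteases of these pathways thus did not move as a group.

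Among the lectins, Fcna, a ficolin of macrophages, had 65.9 CPM in NCD and 29.9 CPM in HFD (log2 -1.14). Colec11, a collectin, had 0.91, Mbl1, the other mannose-binding lectin, -0.45, and the lectin proteases Masp1 and Masp2 0.25 and 0.23. In the alternative pathway, Cfd, or adipsin, known as a product of adipocytes, rested on 10 UMIs in NCD and 511 in HFD (log2 4.36).

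The terminal genes spread widest towards NCD. C8b, which binds the C8a chain within C8, had 130 CPM in NCD and 35.9 CPM in HFD (log2 -1.86), C6 had 78.3 and 32.8 CPM (-1.26), C8g had a log2 ratio of -0.36 and Hc, which encodes C5, 0.48. C9 was the single terminal gene past 1.5-fold towards HFD. C8b was periportal like C8a, with a log2 ratio of periportal over pericentral spots of 0.34 in NCD and 1.10 in HFD, while C6 had -0.83 in NCD and 0.08 in HFD.

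Of 13 regulators, 1 was past 1.5-fold, Cd59a (log2 0.66), which blocks the membrane attack complex at the cell surface. Cfi, a protease that inactivates C3b, had 0.38. Of 5 receptors, C5ar1 (1.71), C3ar1 (1.12), C5ar2 (0.73) and Itgb2 (0.88), found on myeloid cells, were higher, and Vsig4, the complement receptor of Kupffer cells, was lower, at 36.5 CPM in NCD and 16.9 CPM in HFD (-1.11). Vsig4 and Fcna thus differed between sections in the opposite direction to C1q. Within each section they nonetheless went with macrophage RNA as C1q did, at 0.59 in NCD and 0.73 in HFD for Vsig4 and 0.41 and 0.32 for Fcna.

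**Figure D5:**
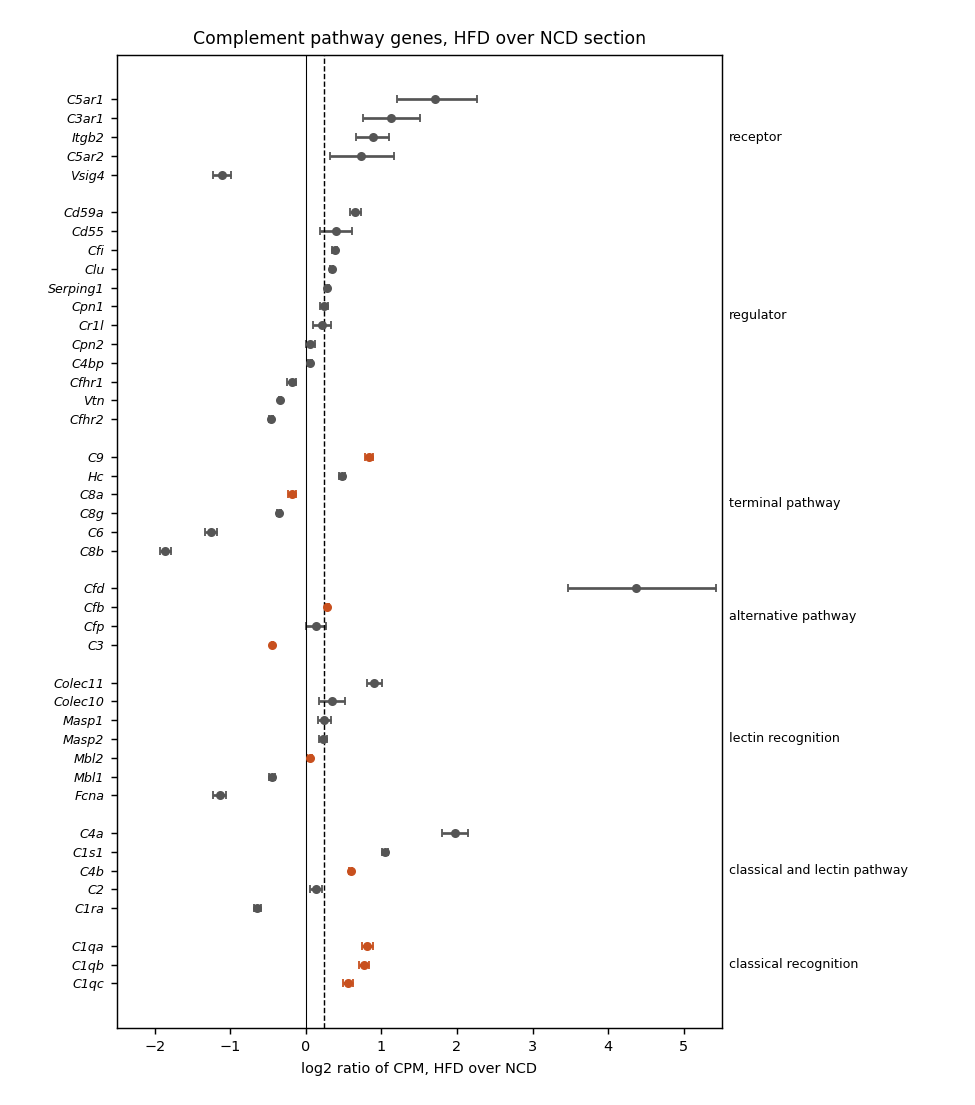
Log2 ratio of CPM, HFD over NCD (x axis), of the complement genes reported here with at least 200 UMIs, grouped by role, with 95% counting intervals. Orange points are the 9 members, grey points the other genes, the solid line stands at 0 and the dashed line at the median of all genes (0.23). C5ar1, C4a and Cfd lay farthest to the right and C8b to the left.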

How the data were processed

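Visium libraries of 1 NCD and 1 HFD section were analysed. The authors deposited counts of UMIs for every gene in every spot, from Space Ranger 1.3.1 (per the file headers; build mm10 per the submitters' processing notes, annotation not given in the sources used here). Filtered matrices hold spots over tissue, and raw matrices gave the spots off tissue. Spots are not replicates, so counts were summed per section or spot class and divided by the total (CPM), with exact Poisson intervals. Ratios carry exact binomial intervals, tested on simulated data (95.41% of intervals held the true ratio over 10665 genes). A gene was counted as past the limit at 1.5-fold with at least 200 UMIs, without a test. No doublet caller was run, and images were not used here. Panels, pathway list and members were chosen with earlier results of these data known. Named were all members, pathway genes past the fold with close partners, and per member the 3 genes with the highest Pearson r over Leiden clusters (resolution 1; members, pathway and panel genes left out of clustering). Some genes that this rule names are not reported here. The macrophage panel genes and further panel or pathway values were named after their values were seen. Positions are from GENCODE M21. Alternatives changed the total, centring, spot selection, depth, index and panel, and the depth windows and the sum without C3 were added after seeing the data. Python 3.11.15, scipy 1.17.1 and scanpy 1.11.5 were used.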

Additional observations from a re-analysis of the deposited data

Results flagged for a closer look

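Among 108 contrasts of a member between spots with and without a marker panel, 2 had intervals on opposite sides of 0 in the sections. C1qc had a log2 ratio of 0.50 for bile duct panel spots in NCD (37 spots) and -0.38 in HFD (118 spots). Cfb had a log2 ratio of 0.071 for red blood cell panel spots in NCD and -0.046 in HFD. Neither difference between sections was tested.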

How the results depend on the processing

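No paired analysis was possible because each diet has 1 section, and leaving out a replicate was not possible for the same reason. Of the 9 members, 4 were past 1.5-fold between sections, and 2 when centred on the median gene or with the mean of CPM per spot. There were 3 without mitochondrial genes or in spots of 8000 to 20000 UMIs, and 6 with the off-tissue profile subtracted. Of all genes tested, 28.4% were past it, 23.3% when centred and 26.6% without mitochondrial genes. For the other settings named here that share was not computed. The log2 ratio of HFD over NCD of summed C1q (0.71) was 0.66 without mitochondrial genes, 0.47 centred, 0.30 as the mean of CPM per spot, 0.75 in spots of at least 3000 UMIs, 0.54 with the off-tissue profile subtracted, 0.75 without the top 1% of spots and 0.76 in spots of 8000 to 20000 UMIs. That of the hepatocyte members (-0.12) was, in the same order, -0.16, -0.35, -0.26, -0.11, 0.28 and, at 8000 to 20000 UMIs, -0.17, with -0.11 when the 20 most abundant genes were left out too, -0.13 when drawn down to 3000 UMIs, and 0.37 without C3. Its sign thus turned with the off-tissue profile and without C3. Drawn down to 1000 UMIs, 1 member in place of 2 was past the fold between periportal and pericentral HFD spots. The share of all genes past it was not computed at that depth. The C1q ratio of macrophage-marker spots over others in NCD (0.59) was 0.38 with the lipid-associated panel, 0.99 with at least 2 panel UMIs, 0.38 without drawing down and 0.70 as the mean of CPM per spot. In HFD (0.62) these were 0.26, 0.81, 0.75 and 0.54, with 0.52 for the Kupffer cell panel and 0.49 when drawn down to 1000 UMIs. All of these C1q ratios stayed above 0. Genes past the fold between sections numbered 3034 with at least 200 UMIs, 1491 with at least 1000 and 8713 with no minimum. In NCD the macrophage panel had 538 CPM in spots under 1000 UMIs and 283 CPM in spots of 20000 or more, so depth limits the comparison between sections. The causes were not tested.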
